A study of Mus musculus with 5 samples.

Results

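Interferon-stimulated effector genes encode the proteins that carry out the antiviral response of a cell. Here 39 of them were followed in MLE-15 cells after knockdown of Grhl2, a Grainyhead-like transcription factor of epithelia. The genes were chosen by name, with earlier results of these data known. RNA sensors, interferon regulatory factors and antigen presentation genes were left out. A gene counted as measured where the array annotation pairs a probe set with its symbol alone, which held for 36 of the 39 genes through 39 probe sets. Isg15 and Gbp2 occur only in probe sets shared with another symbol and were not analysed here, and neither was Ifi44. Mx2 and Sp100 were measured at signals under the filter on low values, so 34 genes were tested, among 14979 genes in all.

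The MLE-15 line of mouse lung epithelial cells derives from tumours that arose in transgenic mice, where the human surfactant protein C promoter expressed the SV40 large tumor antigen. One group of 3 arrays came from cells transduced with a lentivirus carrying an shRNA against Grhl2, and the other group of 2 arrays from cells given the same kind of vector with a non-targeting control shRNA. Both groups therefore carried a VSV-G pseudotyped lentivirus and its GFP reporter, and both were exposed to polybrene (5 µg/ml) during a 16 h infection at a multiplicity of 50 and then to puromycin (5 µg/ml) for 6 days. Each array is labelled as an independent transduction of this one line, each group has 1 hairpin, and no untransduced cells are among the samples. An effect of the knockdown therefore cannot be told apart from other effects of that hairpin.

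Interferons bind receptors on the cell surface, whose Jak kinases phosphorylate STAT proteins. The complex ISGF3, which holds STAT2 and IRF9, then binds interferon-stimulated response elements (ISREs) in the promoters of its target genes. Lung epithelial cells answer both type I interferons and type III interferons, and their effectors block viral entry, translation, replication and release. Many of these genes are also transcribed at a low level without added interferon.

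Values are log2 expression after robust multi-array averaging (RMA), and a log2 fold change is the Grhl2 shRNA mean minus the control mean. A gene passed the test where limma's two-sided p, adjusted by Benjamini-Hochberg over all genes tested, was under 0.05. Grhl2 itself averaged 7.49 ± 0.10 (SD, n = 3) on the Grhl2 shRNA arrays and 7.72 ± 0.06 (SD, n = 2) on the control arrays. That is 85.0% of the control signal, with a limma adjusted p of 0.082 and an exact two-sided permutation p of 0.2, where 5 arrays allow no p below 0.1. The reduction of the targeted transcript thus did not pass the test. All 3 values lay below both control values, which held for 20.5% of all genes tested. All 12 lung epithelial markers listed for the line were above the filter on low values, among them Nkx2-1, Epcam and Sftpb. Of the 12, the protease gene Napsa rose by 0.36 (limma adjusted p = 0.010), the surfactant protein gene Sftpd fell by 0.33 (limma adjusted p = 0.021) and 10 did not pass. The Sftpd call was lost without Grhl2 shRNA replicate 2. The median signal of the arrays lay between 5.29 and 5.32.

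Of the 34 effector genes tested, 12 rose, 1 fell and 21 did not pass the test. The share that rose was 35.3%, in a list chosen with earlier results of these data known. Among all genes tested, 6.38% passed, with 2.86% higher and 3.52% lower. The rises ran from 1.14-fold (Herc6) to 1.87-fold (Ifi27), and 5 of them were at least 1.5-fold. The median log2 fold change of the 34 genes was 0.19, against 0.002 for all genes, and 28 of the 34 had a value above 0, against 50.9% of all genes. In 22 genes every Grhl2 shRNA array lay above both control arrays, which held for 21.0% of all genes, and in 3 every such array lay below both, which held for 20.5%. Of the 100 largest rises among all genes, 9 were effector genes. Fewer genes were called on the whole array when any array was left out: leaving out control replicate 1 gave 5 rises among 91 genes called, and leaving out control replicate 2 gave 4 among 67, against 12 among 956 with all arrays. These fits have a lone control array, which is assumed to vary like the Grhl2 shRNA arrays. Leaving out Grhl2 shRNA replicate 1, 2 or 3 gave 11, 9 and 9 rises among 453, 289 and 493 genes called. The one fall was called without Grhl2 shRNA replicate 2 but lost its call when any other array was left out.

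**Figure D1:**
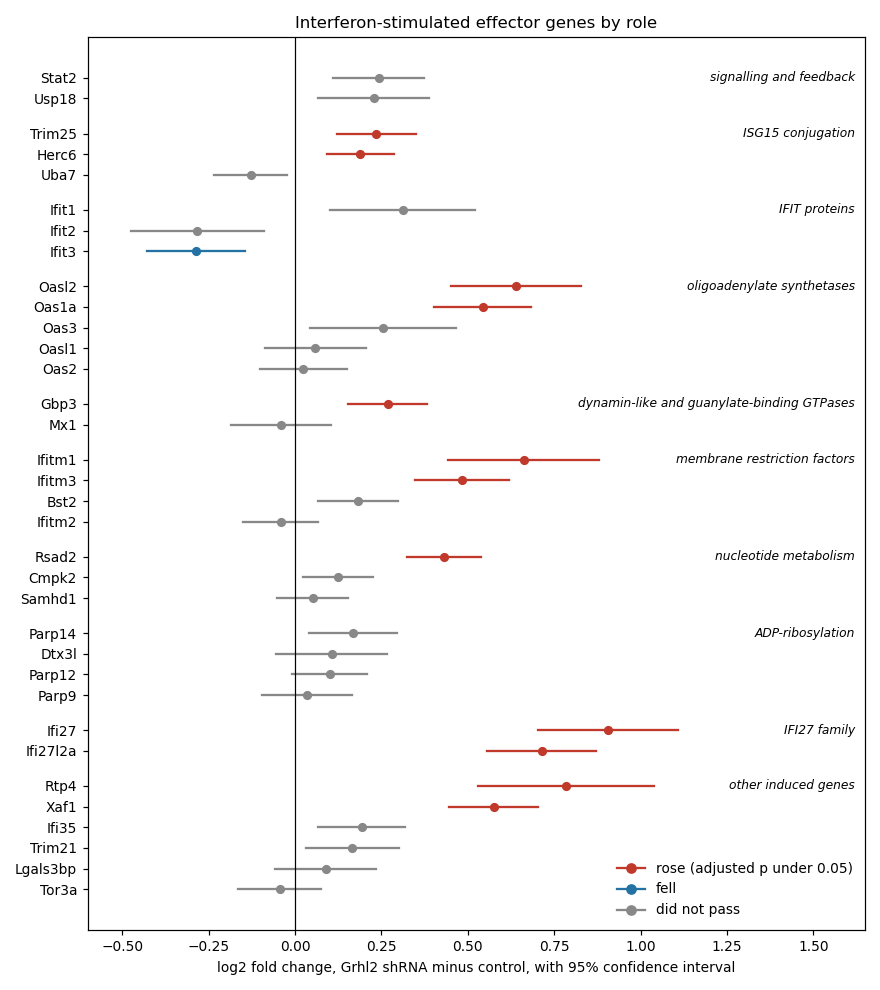
Log2 fold change (x axis, Grhl2 shRNA minus control) with its 95% confidence interval for each of the 34 effector genes tested, grouped by role and coloured by whether the gene rose, fell or did not pass the limma test. The 12 genes that rose are spread over 7 of the 10 role groups, and the IFIT group holds the only gene that fell.

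Promoters of 5 genes are printed to show how rises and falls sat beside the sequence that ISGF3 binds. They are those of Oas1a and Rsad2, which rose and hold an ISRE core, of Oasl2, which rose without one, and of the relatives Ifit1 and Ifit3, whose changes had opposite signs. Each runs 5′ to 3′ from 250 bases before the annotated start to 50 bases after it, on build GRCm38.p6 as given by RefSeq, and capitals mark matches to the ISRE core.
Oas1a, chr5:120907476-120907775, minus strand: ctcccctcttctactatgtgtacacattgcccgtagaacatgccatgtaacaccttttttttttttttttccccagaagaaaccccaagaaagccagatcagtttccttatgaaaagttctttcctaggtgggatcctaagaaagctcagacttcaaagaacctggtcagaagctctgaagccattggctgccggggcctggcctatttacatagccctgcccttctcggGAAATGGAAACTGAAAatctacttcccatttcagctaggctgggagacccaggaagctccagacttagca
Rsad2, chr12:26456403-26456702, minus strand: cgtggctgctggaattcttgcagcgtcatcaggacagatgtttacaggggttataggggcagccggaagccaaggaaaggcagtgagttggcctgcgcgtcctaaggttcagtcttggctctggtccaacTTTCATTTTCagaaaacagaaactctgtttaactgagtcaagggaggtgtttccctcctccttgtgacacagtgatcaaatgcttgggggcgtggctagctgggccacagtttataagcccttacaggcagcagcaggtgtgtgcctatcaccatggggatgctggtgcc
Oasl2, chr5:114896684-114896983, plus strand: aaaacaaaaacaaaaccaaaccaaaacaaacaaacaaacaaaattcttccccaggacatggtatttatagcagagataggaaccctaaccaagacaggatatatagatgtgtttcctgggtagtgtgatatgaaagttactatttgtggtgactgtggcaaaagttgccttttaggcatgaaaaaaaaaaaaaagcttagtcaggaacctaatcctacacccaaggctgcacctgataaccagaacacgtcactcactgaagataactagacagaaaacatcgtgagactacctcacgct
Ifit1, chr19:34640639-34640938, plus strand: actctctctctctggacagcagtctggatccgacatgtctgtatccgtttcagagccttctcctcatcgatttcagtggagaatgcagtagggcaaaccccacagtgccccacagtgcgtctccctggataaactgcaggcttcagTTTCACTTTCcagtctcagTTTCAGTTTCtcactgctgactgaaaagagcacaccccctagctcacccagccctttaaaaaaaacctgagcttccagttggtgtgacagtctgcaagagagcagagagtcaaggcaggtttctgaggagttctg
Ifit3, chr19:34583279-34583578, plus strand: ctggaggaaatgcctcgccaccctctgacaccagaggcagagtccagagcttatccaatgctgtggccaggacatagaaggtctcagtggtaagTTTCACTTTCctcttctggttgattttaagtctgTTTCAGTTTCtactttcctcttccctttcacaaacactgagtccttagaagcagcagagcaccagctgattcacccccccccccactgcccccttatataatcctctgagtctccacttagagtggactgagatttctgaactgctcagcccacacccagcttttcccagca

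The core was searched on both strands as GAAA, any 2 bases and GAAA again. In Oas1a its 2 matches overlap each other, at bases -20 to -11 and -14 to -5 from the start. Rsad2 has 1 match, at -120 to -111. Ifit1 has 2 matches, at -104 to -95 and -85 to -76, and Ifit3 has 2, at -156 to -147 and -122 to -113. The same letters, TTTCACTTTC followed by TTTCAGTTTC, fill both matches in Ifit1 and in Ifit3. No match lies in the Oasl2 window. RefSeq windows were at hand for 25 of the 34 genes tested, Ifi27, Ifi27l2a and Rtp4 not being among them. The core was present in 4 of the 9 such genes that rose, in the 1 that fell and in 6 of the 15 that did not pass, and in 3.99% of all genes with a window. The gamma-activated site, searched as TTCNNNGAA, was in 2 of those 9, in none that fell and in 4 of the 15, and in 9.55% of all genes. The Grainyhead site, searched as AACCGGTT, was in 0 of the 25 windowed genes and in 0.174% of all genes.

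The IFI27 family, small hydrophobic proteins of intracellular membranes, gave the largest rise. On the log2 scale Ifi27 (probe set 10397975) stood at 10.05, 10.31 and 10.28 on the Grhl2 shRNA arrays and 9.23 and 9.38 on the control arrays. Both groups lay far apart, with Grhl2 shRNA replicate 1 the lowest of its group. The means were 10.21 ± 0.14 (SD, n = 3) and 9.31 ± 0.10 (SD, n = 2), a log2 fold change of 0.91 (SE 0.086, limma adjusted p = 0.0048). It ranked 9th among the rises of all 14979 genes. Its neighbour on the chromosome, Ifi27l2a (10402347), had 5.28, 5.43 and 5.41 on the Grhl2 shRNA arrays and 4.74 and 4.58 on the control arrays. It rose by 0.71 (SE 0.066, limma adjusted p = 0.0048), from a control mean of 4.66 that lay near the filter on low values at 4.22. Both genes passed whichever single array was left out.

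Rtp4 (10434778), a chaperone of receptors with an antiviral role, had 6.81, 7.13 and 7.06 on the Grhl2 shRNA arrays and 6.10 and 6.33 on the control arrays. It rose by 0.78 (SE 0.11, limma adjusted p = 0.013), with the widest spread among Grhl2 shRNA arrays of the genes that rose and with Grhl2 shRNA replicate 1 again the lowest of its group. The call was lost without control replicate 1 (limma adjusted p = 0.082) or control replicate 2 (limma adjusted p = 0.054). Xaf1 (10378068), a pro-apoptotic partner of an inhibitor of apoptosis, had 7.09, 7.19 and 7.23 on the Grhl2 shRNA arrays and 6.56 and 6.62 on the control arrays. Its rise of 0.58 (SE 0.054, limma adjusted p = 0.0048) was several times the spread within either group, and its call held whichever array was left out. The other genes outside the named families did not pass: Ifi35, a partner of the interferon-inducible protein Nmi, had a log2 fold change of 0.19, Trim21, a cytosolic antibody receptor, 0.17, Lgals3bp, a secreted galectin-binding glycoprotein, 0.09, and Tor3a, a torsin ATPase, -0.04.

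In the oligoadenylate synthetase family, named for enzymes that make the 2′-5′ oligoadenylates which switch on RNase L, 2 of 5 genes rose. Oasl2 (10524621), a synthetase-like family member, had 7.83, 8.07 and 8.07 on the Grhl2 shRNA arrays and 7.31 and 7.39 on the control arrays, a rise of 0.64 (SE 0.079, limma adjusted p = 0.0097). Oas1a (10533256), a classical synthetase, had 6.50, 6.61 and 6.63 on the Grhl2 shRNA arrays and 5.98 and 6.09 on the control arrays, a rise of 0.54 (SE 0.059, limma adjusted p = 0.0065). In both genes the lowest Grhl2 shRNA value lay above the highest control value, as in 21.0% of all genes tested. Oas3, Oasl1 and Oas2 did not pass, with log2 fold changes of 0.26, 0.06 and 0.02 and 95% confidence intervals of 0.04 to 0.47, -0.09 to 0.21 and -0.10 to 0.15. Without control replicate 1, Oasl2 and Oas1a lost their calls (limma adjusted p = 0.073 and 0.056), and Oasl2 lost it also without control replicate 2 (limma adjusted p = 0.063).

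Of the 4 membrane restriction factors, 2 rose and 2 did not pass. Ifitm1 and Ifitm3 encode proteins that hold incoming enveloped viruses at the membrane, Ifitm2 a close relative, and Bst2 the tetherin that retains budding virions. Ifitm1 (10558769) had 7.42, 7.57 and 7.61 on the Grhl2 shRNA arrays and 7.01 and 6.73 on the control arrays, a rise of 0.66 (SE 0.093, limma adjusted p = 0.014), and its controls differed more from each other than those of the other genes that rose. The call was lost without control replicate 2 (limma adjusted p = 0.071). A second Ifitm1 probe set (10570434) had means of 6.61 ± 0.04 (SD, n = 3) on the Grhl2 shRNA arrays and 6.04 ± 0.02 (SD, n = 2) on the control arrays, a log2 fold change of 0.57 with adjusted p = 0.0044 when every probe set was tested in limma.

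Ifitm3 (10569017) had 10.32, 10.47 and 10.38 on the Grhl2 shRNA arrays and 9.86 and 9.95 on the control arrays. It rose by 0.48 (SE 0.058, limma adjusted p = 0.0086), a call lost without control replicate 1 (limma adjusted p = 0.066) or 2 (limma adjusted p = 0.054). Ifitm2 (10383756) averaged 11.28 ± 0.03 (SD, n = 3) and 11.32 ± 0.06 (SD, n = 2) on the Grhl2 shRNA and control arrays, and its log2 fold change of -0.04 had a 95% confidence interval of -0.15 to 0.07. Its other probe sets, 10553299 and 10569014, had log2 fold changes of -0.01 and -0.04. Probes of these closely related genes may share signal, which was not tested. Bst2 had a log2 fold change of 0.18 and did not pass (limma adjusted p = 0.076).

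**Figure D2:**
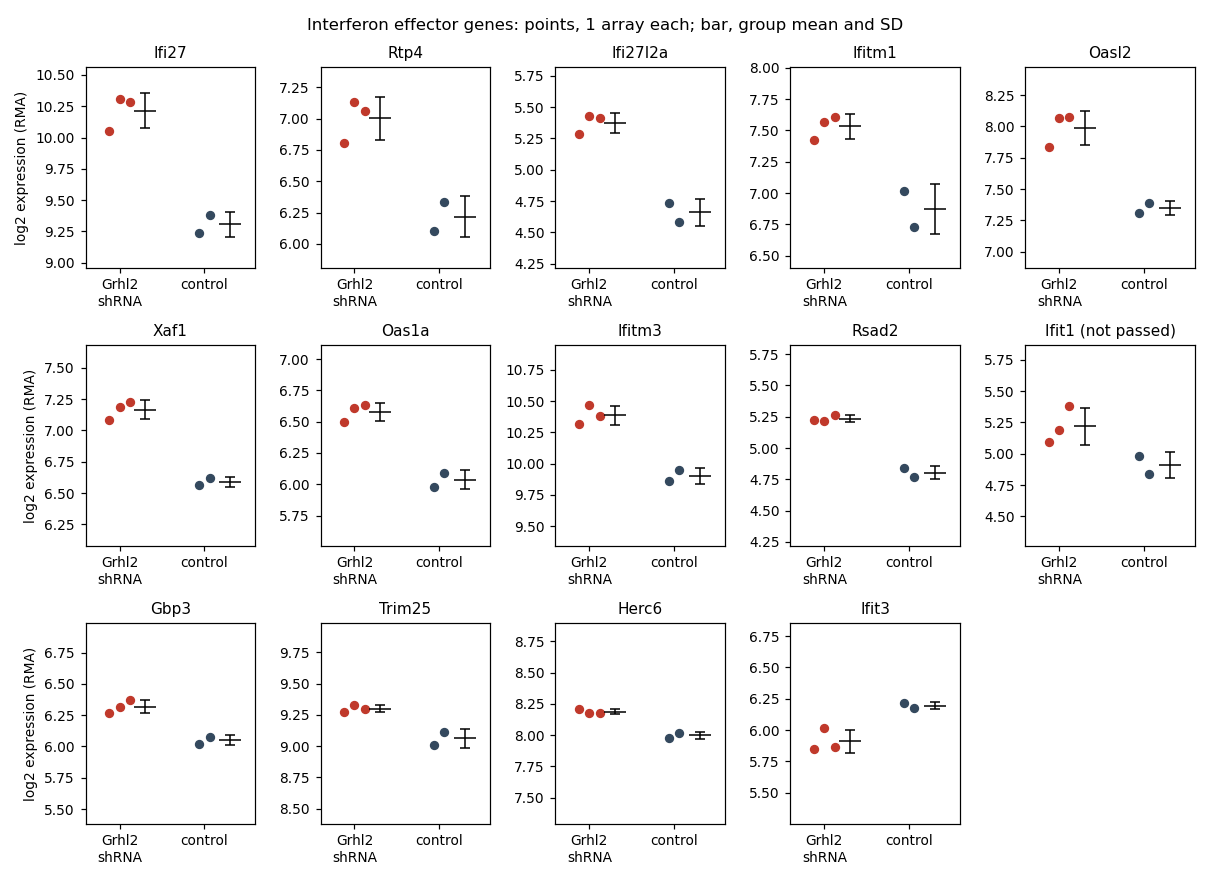
Log2 expression (y axis, each panel spanning the same range of log2 units) on every Grhl2 shRNA array and every control array for the 13 effector genes that passed the test and for Ifit1, which did not. Points are single arrays, and the bar beside them gives the group mean and SD (n = 3 and n = 2). Panels show genes that passed the test or changed by at least 0.3, a choice that favours groups without overlap. The groups do not overlap in any panel, and Ifit3 is the only gene shown whose Grhl2 shRNA arrays lie below its control arrays. Every Grhl2 shRNA array lay above both control arrays in 21.0% of all genes tested and below both in 20.5%.

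The IFIT proteins bind viral RNA or block its translation, and Ifit2, Ifit3 and Ifit1 lie in one cluster. Ifit3 (10462618) had 5.85, 6.01 and 5.87 on the Grhl2 shRNA arrays and 6.21 and 6.18 on the control arrays, and fell by 0.29 (SE 0.060, limma adjusted p = 0.040). Ifit1 (10462623) had 5.09, 5.19 and 5.38 on the Grhl2 shRNA arrays and 4.98 and 4.84 on the control arrays, and its log2 fold change of 0.31 (SE 0.089) did not pass (limma adjusted p = 0.089). The groups did not overlap in either gene, and the signs were opposite. Among all genes tested, 21.0% had every Grhl2 shRNA array above both control arrays and 20.5% had every one below both. Ifit2 had -0.28, with a 95% confidence interval of -0.48 to -0.09, and did not pass (limma adjusted p = 0.092).

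Of the genes for ISG15 conjugation, the attachment of a ubiquitin-like protein to new proteins, 2 of 3 rose slightly. Trim25 (10380260), a ubiquitin and ISG15 ligase, had 9.28, 9.33 and 9.29 on the Grhl2 shRNA arrays and 9.01 and 9.12 on the control arrays, and rose by 0.24 (SE 0.048, limma adjusted p = 0.038). Herc6 (10538590), the main ISG15 ligase of the mouse, had 8.21, 8.18 and 8.18 on the Grhl2 shRNA arrays and 7.98 and 8.02 on the control arrays, and rose by 0.19 (SE 0.041, limma adjusted p = 0.043). Both changes were small, and both calls were lost whichever array was left out, with limma adjusted p-values up to 0.18 and 0.20. Uba7, the activating enzyme of the same pathway, had a log2 fold change of -0.13 and did not pass (limma adjusted p = 0.14). Stat2, the ISGF3 subunit, and Usp18, which removes ISG15 and damps the type I receptor, had 0.24 and 0.23. Both missed the threshold (limma adjusted p = 0.051 and 0.099). In both genes every Grhl2 shRNA array lay above both control arrays, which held for 21.0% of all genes tested.

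Rsad2 (10399710) encodes viperin, which makes a chain-terminating nucleotide. It had 5.22, 5.22 and 5.27 on the Grhl2 shRNA arrays and 4.84 and 4.77 on the control arrays, not far above the filter at 4.22. It rose by 0.43 (SE 0.045, limma adjusted p = 0.0060), with little spread in either group, and lost its call only without control replicate 2 (limma adjusted p = 0.055) among the arrays left out. Cmpk2, a nucleotide kinase and its neighbour on the chromosome, had 0.12, and Samhd1, which breaks down deoxynucleotides, 0.05, and neither passed. Gbp3 (10496580), a guanylate-binding GTPase, had 6.27, 6.31 and 6.37 on the Grhl2 shRNA arrays and 6.02 and 6.08 on the control arrays, and rose by 0.27 (SE 0.048, limma adjusted p = 0.027). That call held without Grhl2 shRNA replicate 1 and was lost without any of the other 4 arrays. Mx1, a dynamin-like GTPase, had -0.04, with a 95% confidence interval of -0.19 to 0.11. Mx2 and Sp100, a nuclear body protein, were untested for their low signal, at 3.74 ± 0.05 and 4.05 ± 0.17 (SD, n = 3) on the Grhl2 shRNA arrays and 3.47 ± 0.13 and 3.97 ± 0.06 (SD, n = 2) on the control arrays.

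None of the 4 ADP-ribosylation genes passed. Parp14, an ADP-ribosyltransferase, had a log2 fold change of 0.17 (95% confidence interval 0.04 to 0.30), and Parp12, of the same family, 0.10 (-0.01 to 0.21). Dtx3l and Parp9, partners in one ubiquitin ligase complex and neighbours on the chromosome, had 0.11 (-0.06 to 0.27) and 0.03 (-0.10 to 0.16). All 4 intervals leave out changes as large as those of Ifi27, Rtp4 or Oasl2.

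Genes of one cluster were set against each other directly. In RefSeq's gene order 14 pairs of tested effector genes have at most 5 other protein-coding genes between them, and the difference between their log2 fold changes was computed array by array. Ifitm1 and Ifitm3 exceeded Ifitm2 by 0.70 and 0.52, and Ifit1 exceeded Ifit3 and Ifit2 by 0.60 and 0.59. Rsad2 exceeded Cmpk2 by 0.31, Oas1a exceeded Oas3 by 0.29 and Parp14 exceeded Parp9 by 0.13. Each of these 7 pairs had an exact two-sided permutation p of 0.1, the smallest that 5 arrays allow, and an adjusted p of 0.2 over the 14 pairs. Oasl2 exceeded Oasl1 by 0.58, with per-array differences, relative to their control mean, of 0.32, 0.68 and 0.74 on the Grhl2 shRNA arrays and 0.005 and -0.005 on the control arrays, and an exact permutation p of 0.2. Ifit2 and Ifit3 differed by 0.004 (exact permutation p = 1). No pair can pass a threshold of 0.05 in this design, so unequal change within a cluster is given here as a measurement only.

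The 3 Grhl2 shRNA arrays did not carry the change equally. Over the 34 genes the mean difference from the control mean was 0.17, 0.26 and 0.27 on Grhl2 shRNA replicates 1, 2 and 3, and over the 12 that rose it was 0.45, 0.58 and 0.58. Replicate 1 was the lowest Grhl2 shRNA array in 26 of the 34 genes (76.5%) and in 10 of the 12 that rose, whereas it was the lowest in 35.0% of all genes and in 39.2% of all genes that rose. Control replicate 2 was the higher control array in 20 of the 34 genes (58.8%) and in 9 of the 12 that rose. It was the higher in 45.3% of all genes and in 42.9% of all genes that rose. The Grhl2 signal was 7.43 on Grhl2 shRNA replicates 1 and 2 and 7.60 on Grhl2 shRNA replicate 3. Effector genes share regulators and are not independent of each other, and each array is 1 culture.

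**Figure D3:**
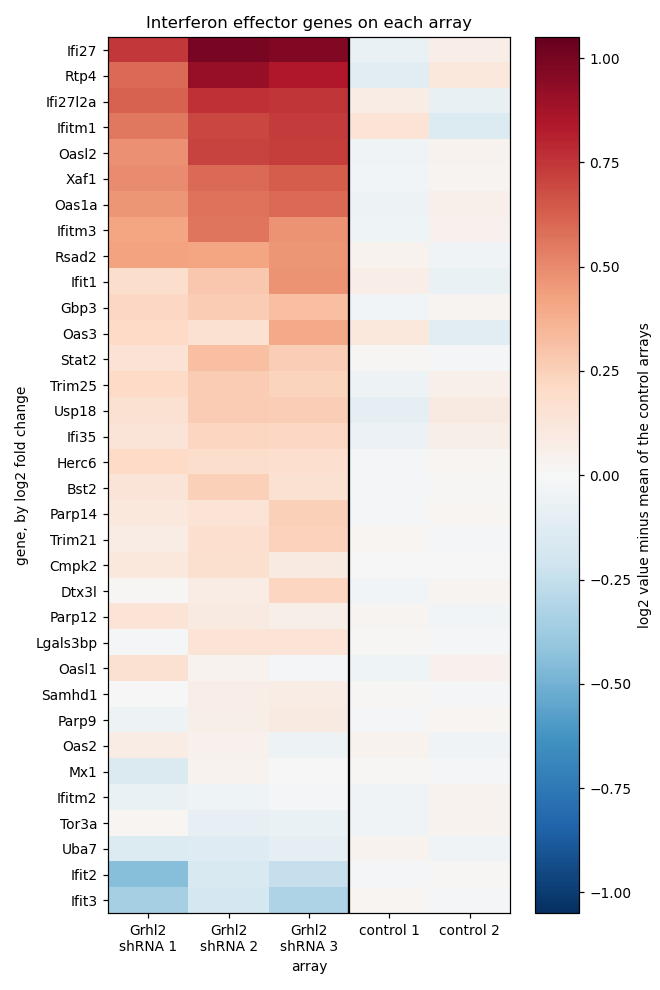
Difference of each log2 value from the mean of the 2 control arrays (colour scale) for the 34 effector genes tested, ordered from the largest to the smallest log2 fold change, with the 3 Grhl2 shRNA arrays left of the 2 control arrays. Grhl2 shRNA replicate 1 is paler than replicates 2 and 3 in most of the upper rows, and the 3 lowest rows are Uba7, Ifit2 and Ifit3.

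Other steps of the interferon pathway were read from further lists of genes. Of 10 interferon ligand genes, 4 were tested and 0 passed with limma. Only Ifna2 had an unadjusted p under 0.05, at a log2 fold change of 0.30 (limma adjusted p = 0.21, groups overlapping). Ifnb1, the interferon most cells make first, was under the filter, at 4.10 ± 0.13 (SD, n = 3) on the Grhl2 shRNA arrays and 4.02 ± 0.02 (SD, n = 2) on the control arrays. Of 6 receptor genes, 1 fell and 5 did not pass. Ifnlr1 (10509053), the specific receptor chain for type III interferons, had 6.79, 6.79 and 6.89 on the Grhl2 shRNA arrays and 7.12 and 7.07 on the control arrays, and fell by 0.27 (SE 0.049, limma adjusted p = 0.029). Its call held without Grhl2 shRNA replicate 3 and was lost without any of the other 4 arrays.

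Of 12 signalling and feedback genes listed, 11 were tested, of which 1 rose and 10 did not pass. The gene that rose was Irf9 (10415319), the DNA-binding subunit of ISGF3. It had 8.03, 8.10 and 8.06 on the Grhl2 shRNA arrays and 7.62 and 7.64 on the control arrays, a rise of 0.43 (SE 0.043, limma adjusted p = 0.0052), and lost its call without either control array. Of 55 other interferon-inducible genes listed, 34 were tested. Of these, 4 rose, 30 did not pass and 0 fell, where 2.86% of all genes were higher and 3.52% lower. The 34 had a median log2 fold change of 0.05, and 27 of them lay above 0, against 50.9% of all genes. The 4 were Oas1b (0.41), Trim30a (0.41), Irgm1 (0.34), an immunity-related GTPase, and Adar (0.23), the RNA-editing deaminase, with limma adjusted p-values of 0.037, 0.031, 0.021 and 0.047. Their count was 2 or fewer with any single array left out.

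**Figure D4:**
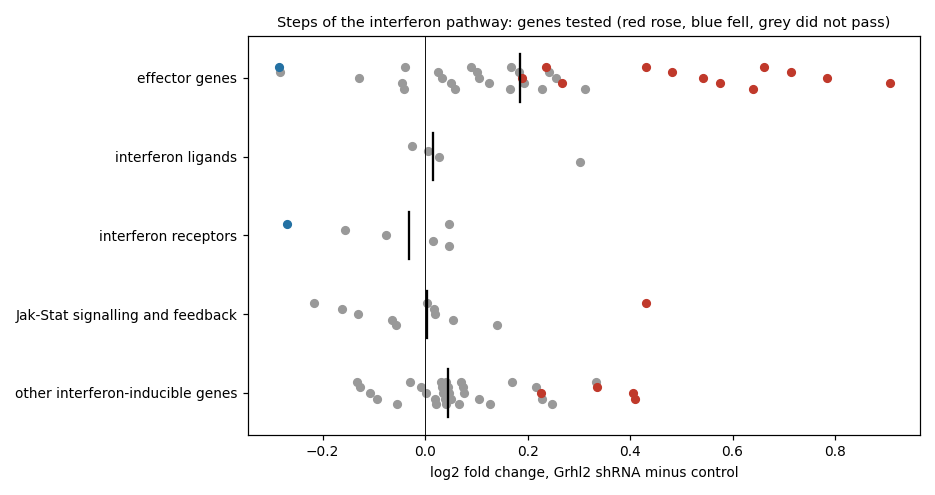
Log2 fold change (x axis, Grhl2 shRNA minus control) of each gene tested, in rows for the effector genes and for 4 further steps of the interferon pathway. Points are genes, coloured by the limma test, and black bars are row medians, which lie at 0.19 for the effector genes and between -0.03 and 0.05 for the other rows.

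Markers of other cell types were read on the same arrays. Of 7 macrophage and leukocyte markers tested, Tyrobp alone rose, by 0.28 (limma adjusted p = 0.020). Its control mean of 4.33 lay near the filter at 4.22, and its call was lost without Grhl2 shRNA replicate 1 or 2. Ptprc, Itgam and Adgre1 were under the filter. The summed log2 value of the 7 ran from 36.97 to 37.67 on the Grhl2 shRNA arrays and from 36.73 to 36.83 on the control arrays. Of 7 fibroblast markers Dcn alone rose, by 0.70 (limma adjusted p = 0.036), and of 6 endothelial markers Tek alone rose, by 0.91 (limma adjusted p = 0.0066). Their summed log2 values ran from 39.98 to 40.60 and from 32.69 to 32.91 on the Grhl2 shRNA arrays. On the control arrays they ran from 39.89 to 39.98 and from 31.91 to 32.55. Only 1 of the 7 fibroblast markers and 2 of the 6 endothelial markers had a log2 fold change above 0. The list medians were -0.01 and -0.05, so the higher sums came mainly from Dcn and Tek. Lum, Emcn and Kdr were under the filter. The Dcn call was lost without Grhl2 shRNA replicate 2 or 3. The part of these markers in the changes of the effector genes was not tested.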

How the data were processed

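RNA of 5 MLE-15 cultures, 3 with Grhl2 shRNA and 2 with control shRNA, was measured on Affymetrix whole-transcript arrays, from 300 ng of total RNA each per the labels' protocols. The authors deposited 1 table of log2 values for 34760 probe sets, which the submitters' processing notes credit to Affymetrix Expression Console and RMA. That method subtracts background, equalises the quantiles of the arrays and combines the probes of a set, which narrows differences between arrays and compresses low signals. Neither software versions nor a genome build is given in the sources used here. Base 2 was inferred from the method and the span of values.

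The platform annotation pairs 21640 probe sets with 1 symbol. Those with a mean log2 value of at least 4.22, the 25th percentile, were kept, and the probe set with the highest mean stood for each gene. The 14979 genes were fitted together by limma 3.58.1 under R 4.3.3 (lmFit, eBayes) with 3 residual degrees of freedom, and the few arrays limit the precision. Every measured effector gene was named. Genes from the other pathway lists were named where they passed, or by the largest change where none did. The effector genes, lists and neighbour pairs were chosen with earlier results of these data known. Alternatives covered the filter, normalization, probe set, variance prior, array weights, replicate block, threshold and each array left out.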

Additional observations from a re-analysis of the deposited data

How the results depend on the processing

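The sign of the change held for 32 of the 34 effector genes under every alternative that tested them. The exceptions were Oas2 (-0.0091 to 0.061 with 1 array left out) and Mx1 (-0.077 to 0.015 with 1 array left out). The median log2 fold change stayed between 0.16 and 0.21. With one array left out, effector genes called ran from 4 to 11 higher and from 0 to 1 lower, other pathway genes from 0 to 3 higher and from 0 to 1 lower, and Grhl2 from -0.29 to -0.19. Grhl2 passed at -0.29 (limma adjusted p = 0.047) without Grhl2 shRNA replicate 3. Without a filter on low values 9 effector genes were higher and 0 lower, and other pathway genes 2 and 0. Filtering at the 50th percentile left 27 effector genes tested, of which 14 were higher and 1 lower. Other pathway genes lower were then 2, and Grhl2 passed at -0.24, as it did with a trended robust prior. That prior called 17 effector genes higher and 2 lower, and other pathway genes 8 and 3, while array weights called 2 other pathway genes lower. At a threshold of 0.01 the counts were 7 and 0 for effector genes and 1 and 0 for other pathway genes, and at 0.1 they were 17 and 2, and 9 and 2, with Grhl2 at -0.24 then passing. With the replicate number as a block, 8 effector genes were higher and 0 lower, and other pathway genes 1 and 0. The labels give these numbers to independent transductions, and the differences between replicates 1 and 2 correlated at 0.045 over genes between the groups, so the numbers were not taken as pairs. The number of all genes called moved too, from 956 to 418 without a filter, 1708 with the filter at the higher percentile, 2034 with the trended prior, 1094 with array weights, 172 with the block, 130 at 0.01 and 1851 at 0.1. The cause of these shifts was not tested.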
